A study of Mus musculus with 12 samples.

Results

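The CDK inhibitor and p53 axis was described here through 9 genes taken from a fixed list: the inhibitor genes Cdkn1a, Cdkn1b, Cdkn2a, Cdkn2b, Cdkn2c and Cdkn2d, together with Trp53, Mdm2 and Rb1. These are 9 of 55536 genes in the tables and 9 of the 17919 genes with enough counts to be tested, so every listed gene passed the count filter. Their RNA was measured by strand-specific total RNA-seq in primary mouse OPCs (oligodendrocyte precursor cells, which divide in the young brain and mature into the cells that make myelin). Each culture pooled several brains, taken at P4 to P6 from pups of both sexes, from a Sox10:Cre line crossed to the RCE:loxP (EGFP) reporter on C57BL/6j and mixed C57BL/6xCD1 backgrounds, in which Cre under Sox10 control marks the oligodendrocyte lineage. All groups were grown in the same medium with PDGFaa and bFGF, growth factors that keep OPCs dividing. Ctr-OPCs received no further agent, Dexa-treated OPCs received 1 µM of the synthetic glucocorticoid dexamethasone for 48 h, and IFN-γ-treated OPCs received 100 ng/ml of the cytokine IFN-γ for 48 h. The labels give 4 replicates in each group, every one from another litter. The sample labels call the cells Sox10GFP+ OPCs, while the protocol allows either GFP sorting or CD140a beads, and a further label names the EAE disease model although the protocol describes cultures from pups.

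CDK inhibitors are small proteins that bind cyclin-dependent kinases and hold cells in G1. The CIP/KIP proteins p21 (Cdkn1a) and p27 (Cdkn1b) bind cyclin-CDK complexes, whereas the INK4 proteins p15 (Cdkn2b), p16 (Cdkn2a), p18 (Cdkn2c) and p19Ink4d (Cdkn2d) bind the G1 kinases Cdk4 and Cdk6, which otherwise inactivate the retinoblastoma protein (Rb1) and release E2F transcription factors. The Cdkn2a locus also encodes p19Arf from its own first exon. Arf binds Mdm2, the ubiquitin ligase that removes p53 (Trp53), and p53 in turn activates Cdkn1a and Mdm2. In OPCs, p27 is known for its part in timing the exit from the cell cycle before differentiation.

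The 11 complete libraries held 19209063 to 52074652 reads assigned to transcripts. The table of Dexa replicate 3 stopped after 33.7% of the transcripts and entered no fit over all genes, though it lists Trp53, Mdm2 and Rb1 whole. OPC markers (Pdgfra, Cspg4, Sox10, Olig1, Olig2 and Ptprz1) summed to 751 to 1318 TPM (a level scaled to transcript length and library size) in Ctr-OPCs, 912 to 1334 in Dexa-treated and 659 to 1269 in IFN-γ-treated OPCs. The leukocyte marker Ptprc was at most 0.024 TPM. The 6 microglia markers summed to 0.121 to 0.469 TPM in Ctr-OPCs and 0.316 to 0.785 in IFN-γ-treated OPCs, with Cx3cr1, Csf1r, Tmem119 and Itgam under 0.1 TPM, and the 3 fibroblast markers to 0.015 to 0.719 and 0.188 to 1.59. The 6 oligodendrocyte markers summed to 8.83 to 56.1 TPM in Ctr-OPCs, 12.7 to 78.2 in Dexa-treated and 7.91 to 50.7 in IFN-γ-treated OPCs. The 4 astrocyte markers summed to 8.7 to 40.7 TPM in Ctr-OPCs, 15.9 to 45.8 in Dexa-treated and 16.2 to 51.2 in IFN-γ-treated OPCs. Among them Gfap was at 0.0329 to 0.327 TPM in Ctr-OPCs, 0.266 to 1.06 with dexamethasone and 1.29 to 3.27 with IFN-γ. Aqp4 was at 1.25 to 6.49 TPM in Ctr-OPCs and at 0.86 to 3.53 with IFN-γ. Gja1 was at 2.7 to 12.9 and 1.92 to 13 TPM, and Aldh1l1 at 4.72 to 21.1 and 12.1 to 31.5, in the same order. The 4 neuron markers summed to 3.17 to 4.91, 4.82 to 6.78 and 3.89 to 6.48 TPM in the Ctr, Dexa and IFN-γ groups, and the 3 endothelial markers to 0.208 to 0.428, 0.406 to 0.881 and 0.19 to 0.47. The part of these cells in the results was not tested, and in bulk libraries fewer cells of a type and less RNA per cell cannot be told apart. Of genes known to respond to the treatments, Irf1, which IFN-γ induces, rose by 6.02 ± 0.08 (log2 fold change ± SE, DESeq2) upon IFN-γ treatment, and the glucocorticoid-induced genes Fkbp5 and Per1 rose by 1.41 ± 0.08 and 1.60 ± 0.10 upon dexamethasone.

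In Ctr-OPCs the levels per transcript length ran from 20.4 ± 6.75 TPM (SD, n = 4) for Cdkn2c to 1.41 ± 0.342 for Cdkn2b. Between these stood Cdkn1b at 19.1 ± 2.05 TPM, Trp53 at 18.9 ± 2.56, Mdm2 at 18 ± 1.44, Cdkn2d at 15.7 ± 4.02, Cdkn1a at 9.74 ± 3.68, Rb1 at 6.46 ± 0.935 and Cdkn2a at 3.58 ± 1.76. The ranges of neighbours in this order overlapped for every pair except Cdkn2a and Cdkn2b, for which all 4 libraries of the first lay above all 4 of the second. Among the CDK inhibitor genes of this list, those for p18 and p27 thus had the highest mean levels in untreated OPCs. The Cdkn2c range of 13.7 to 27.2 TPM still overlapped the 12 to 19.5 TPM of Cdkn2d. The genes of the Cdkn2a-Cdkn2b locus had the lowest means. Cdkn1c, a further CDK inhibitor gene, was not ranked.

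Upon IFN-γ treatment, 6 of the 9 genes rose: Cdkn1a, Cdkn1b, Cdkn2a, Cdkn2b, Trp53 and Mdm2 (DESeq2 Wald test with the replicate number as a block, Benjamini-Hochberg adjusted p under 0.05). None fell. Over all 17919 genes the same test called 29.2%, of which 15.2% of the genes tested were higher. The median log2 fold change of the 9 genes was 0.31, with a range of 0.19 to 1.25, against a median of -0.01 over all genes. With edgeR's quasi-likelihood test and the same block the count was also 6, where 31.3% of all genes were called. Without the block it was 3 in DESeq2 (12.8% of all genes) and 2 in edgeR (8.44%). IFN-γ-treated cultures lay above the Ctr culture of the same replicate number in 4 of 4 pairs for 7 of the 9 genes, which 21.2% of all genes did. For 3 genes, Cdkn1a, Cdkn1b and Mdm2, the ranges of the groups did not overlap at all, with IFN-γ higher, against 8.66% of all genes. The 3 genes that missed the threshold, Cdkn2c, Cdkn2d and Rb1, had positive fold changes as well, with intervals given below.

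**Figure D1:**
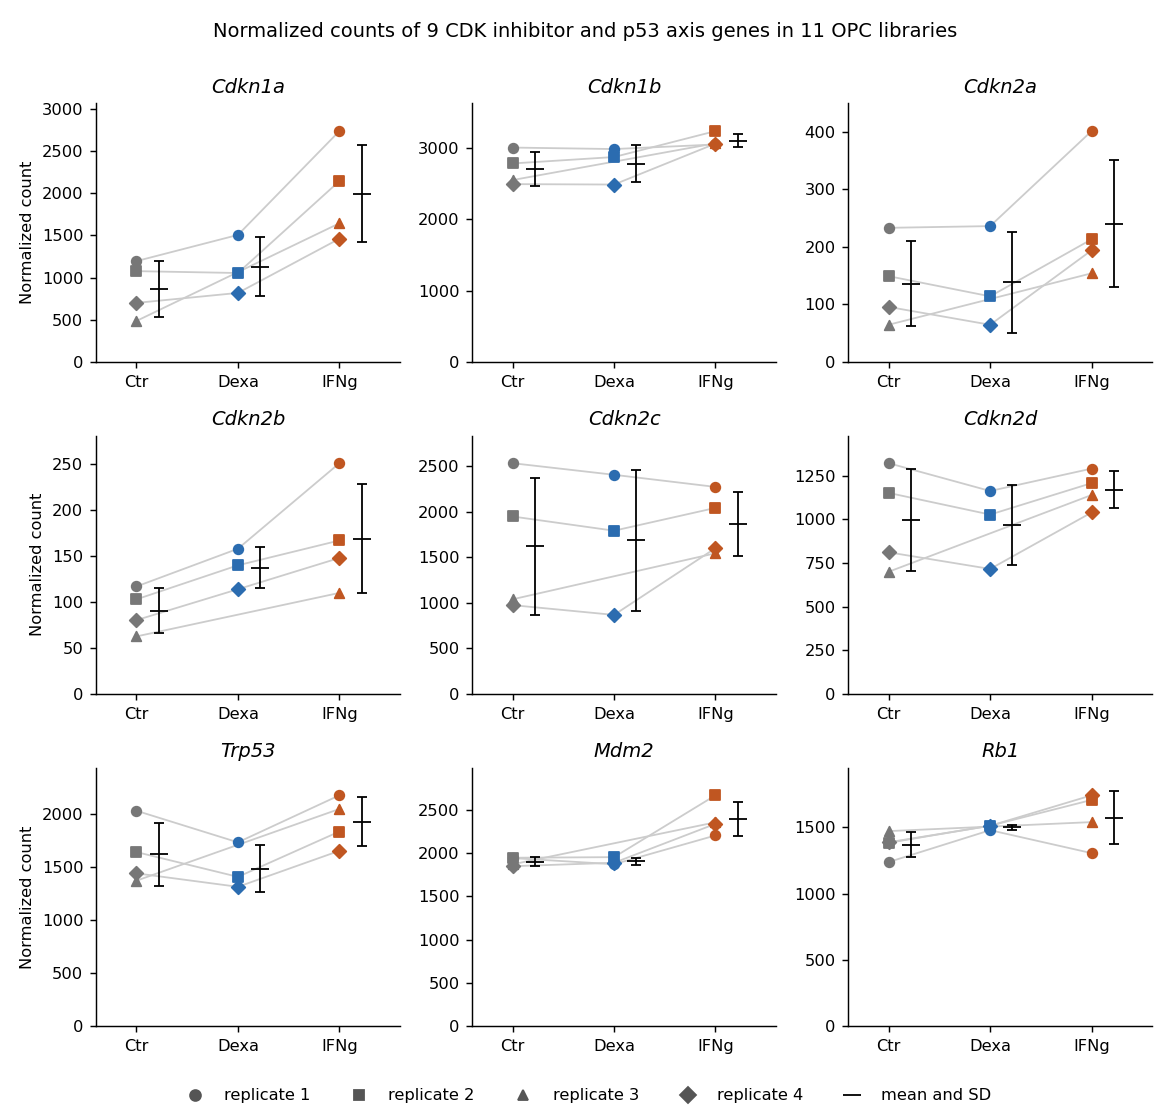
Normalized counts (counts divided by DESeq2 size factors, linear axis from 0) of the 9 genes in Ctr-, Dexa-treated and IFN-γ-treated OPCs, 1 point per library, with grey lines joining libraries of the same replicate number and bars for mean and SD; Dexa replicate 3 is missing, so the line of replicate 3 runs from Ctr to IFNg. Cdkn1a runs from 486 to 1195 in Ctr-OPCs and from 1460 to 2735 in IFN-γ-treated OPCs, and Cdkn2a and Cdkn2b are highest in replicate 1 of each group and lie higher with IFN-γ than in Ctr in 4 of 4 pairs.

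Cdkn1a, encoding p21, showed the largest change among the 9 genes upon IFN-γ treatment against Ctr. Its normalized counts in Ctr replicates 1 to 4 were 1195, 1076, 486 and 700. Those in IFN-γ-treated replicates 1 to 4 were 2735, 2143, 1643 and 1460. Dexa-treated replicates 1, 2 and 4 held 1505, 1054 and 818. Every IFN-γ library was above every Ctr library, while the lowest IFN-γ library lay just under the highest Dexa library. The log2 fold change upon IFN-γ was 1.25 ± 0.12 (SE), a 2.37-fold rise with a 95% interval of 2.01 to 2.79 (adjusted p = 1.38e-23 in DESeq2 and 1.76e-05 in edgeR, both with the block). Within pairs the log2 ratio was 0.99 to 1.76. The call held in 19 of 19 alternative fits that gave this gene a value. Cdkn1a lies on chromosome 17 at 29090976 to 29100727 (GRCm38, plus strand), and the unclassified gene AC167363.2 on the opposite strand overlaps 1046 bases of it and held 10 to 80 counts per library.

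Transcripts of Cdkn1a begin at an upstream start, at the main start and, for Cdkn1a-203, further downstream (39.5 ± 9.64 normalized counts with IFN-γ and 17.4 ± 5.9 in Ctr-OPCs, SD, n = 4). In Cdkn1a-201, the main transcript, IFN-γ-treated OPCs averaged 1746 ± 529 normalized counts (SD, n = 4) against 786 ± 314 in Ctr-OPCs. The transcripts Cdkn1a-202 and Cdkn1a-204, which begin at the upstream start, took 3.87%, 3.36%, 1.73% and 1.47% of the Cdkn1a counts in Ctr replicates 1 to 4. In IFN-γ-treated replicates 1 to 4 they took 5.55%, 6.68%, 4.03% and 3.43%, and in Dexa-treated replicates 1, 2 and 4 they took 3.46%, 2.56% and 0.578%. The share was higher with IFN-γ in 4 of 4 pairs, although Ctr replicate 1 lay above IFN-γ replicate 4. The means were 4.92% and 2.61% (exact two-sided permutation test over libraries, p = 0.0571, with 0.0286 the smallest value 4 against 4 can give), and an exact sign-flip test over the 4 pairs gave p = 0.125, the smallest it can give. Such shares were also compared for Cdkn2a, given below, and for Cdkn2c. The upstream-start transcript Cdkn2c-202 took a mean of 59.5% of Cdkn2c counts with IFN-γ and 59.2% in Ctr-OPCs (exact permutation test, p = 0.943), and was higher in 2 of 4 pairs. The Cdkn1a shares rest on 9 to 153 estimated upstream-start counts per library in the Ctr and IFN-γ groups. In Dexa-treated replicates 1, 2 and 4 they rest on 48, 32 and 3 counts, and the 95% Wilson interval in replicate 4 is 0.218 to 1.87%. Salmon divides reads on shared exons between transcripts here too, and the intervals leave that uncertainty out. The stretches before the upstream and the main start are shown because both held counts. They come from RefSeq promoters on GRCm38.p6, plus strand, at chr17:29090729-29090975 for the upstream start and chr17:29093519-29093768 for the main start. Capitals mark matches to the p53 half-site.
Cdkn1a upstream start: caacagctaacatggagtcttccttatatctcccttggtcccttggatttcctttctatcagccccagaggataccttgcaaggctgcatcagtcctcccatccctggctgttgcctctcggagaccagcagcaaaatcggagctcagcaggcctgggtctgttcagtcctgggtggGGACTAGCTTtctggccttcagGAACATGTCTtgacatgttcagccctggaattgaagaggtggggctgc
Cdkn1a main start: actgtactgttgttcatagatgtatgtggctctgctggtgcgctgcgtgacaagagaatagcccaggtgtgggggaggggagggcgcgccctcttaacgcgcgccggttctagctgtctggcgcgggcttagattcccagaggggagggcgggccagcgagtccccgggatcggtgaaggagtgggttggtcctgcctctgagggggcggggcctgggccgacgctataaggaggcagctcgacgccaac
The upstream stretch holds 2 matches to the p53 half-site, at 73 to 64 and 51 to 42 bases before the RefSeq start, and the stretch before the main start holds none.

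Mdm2, the ubiquitin ligase that acts on p53 and is itself a p53 target, varied little between the Ctr cultures and rose by a small amount. Its normalized counts were 1944, 1948, 1872 and 1850 in Ctr replicates 1 to 4. They were 2206, 2670, 2358 and 2340 upon IFN-γ treatment. In Dexa-treated replicates 1, 2 and 4 they were 1873, 1955 and 1890. All 4 IFN-γ libraries lay above all 7 others. The log2 fold change upon IFN-γ was 0.33 ± 0.07 (1.26-fold, 95% interval 1.14 to 1.38, DESeq2 adjusted p = 4.20e-05), and this gene kept its call in all 20 alternative fits, including those without the block (9.36e-05 in DESeq2, 0.0105 in edgeR). Mdm2 lies on chromosome 10 at 117688875 to 117710758 on the minus strand. The bases before its RefSeq start (chr10:117710759-117711008, GRCm38.p6, minus strand) are shown beside those of Cdkn1a because both genes are textbook p53 targets, with the half-site match in capitals at 186 to 177 bases before the start.
Mdm2: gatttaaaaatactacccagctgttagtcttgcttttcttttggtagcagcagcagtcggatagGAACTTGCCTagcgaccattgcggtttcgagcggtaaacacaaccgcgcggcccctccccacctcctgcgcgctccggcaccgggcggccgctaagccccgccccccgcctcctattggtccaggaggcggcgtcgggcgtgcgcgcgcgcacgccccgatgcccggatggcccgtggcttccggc

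Trp53, encoding p53, had 2034, 1644, 1374 and 1443 normalized counts in Ctr replicates 1 to 4. In IFN-γ-treated replicates 1 to 4 it had 2180, 1838, 2051 and 1656. In Dexa-treated replicates 1, 2 and 4 it had 1736, 1410 and 1316. The Ctr and IFN-γ ranges overlapped, and the largest step was in replicate 3. The log2 fold change upon IFN-γ was 0.26 ± 0.09 (1.2-fold, 95% interval 1.06 to 1.35, DESeq2 adjusted p = 0.0174). The call was lost without Ctr replicate 3 (log2 fold change 0.15, adjusted p = 0.25), IFN-γ replicate 3 (0.15, adjusted p = 0.232) or Ctr replicate 4 (0.27, adjusted p = 0.0721), and in the fits without the block (adjusted p = 0.388 in DESeq2). It was also lost in a DESeq2 fit of the Ctr and IFN-γ groups alone (adjusted p = 0.0595). With all 12 libraries, over the genes that the shortened Dexa table lists whole, the log2 fold change was 0.25 ± 0.09 (DESeq2 adjusted p = 0.0125).

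Cdkn2a had 233, 149, 64.7 and 95.6 normalized counts in Ctr replicates 1 to 4. Upon IFN-γ treatment it had 401, 213, 154 and 194, and in Dexa-treated replicates 1, 2 and 4 it had 236, 114 and 64.6. Replicate 1 was highest in each group, so the ranges of the groups overlapped while each IFN-γ culture exceeded its own control. The log2 fold change was 0.88 ± 0.17 (1.84-fold, 95% interval 1.45 to 2.32, DESeq2 adjusted p = 4.40e-06, edgeR adjusted p = 0.00151). Without the block it missed the threshold (adjusted p = 0.321 in DESeq2). Cdkn2a occupies chromosome 4 from 89274471 to 89294653 on the minus strand and has 2 annotated transcripts, which differ in their first exon. Cdkn2a-202 starts upstream and encodes p19Arf, whereas Cdkn2a-201 encodes p16Ink4a. The stretches before both starts are shown because both transcripts held estimated counts in Ctr-OPCs (GRCm38.p6, minus strand, chr4:89294654-89294869 for the Arf start, cut at its first annotated base, and chr4:89282193-89282442 for the p16Ink4a start). Neither holds a match to the motifs searched, so nothing is in capitals.
Cdkn2a Arf start: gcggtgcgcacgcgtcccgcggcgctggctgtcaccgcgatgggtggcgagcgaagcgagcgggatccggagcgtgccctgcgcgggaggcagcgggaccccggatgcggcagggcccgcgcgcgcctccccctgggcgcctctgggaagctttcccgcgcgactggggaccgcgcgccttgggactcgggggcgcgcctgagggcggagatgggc
Cdkn2a p16Ink4a start: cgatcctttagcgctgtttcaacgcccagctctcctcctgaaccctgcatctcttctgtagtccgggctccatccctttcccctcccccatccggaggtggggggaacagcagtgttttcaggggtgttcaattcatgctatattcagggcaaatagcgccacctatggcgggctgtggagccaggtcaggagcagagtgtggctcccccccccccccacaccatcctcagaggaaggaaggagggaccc

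Nearly all Cdkn2a counts were assigned to the Arf transcript. The p16Ink4a transcript took 3.17%, 2.6%, 1.67% and 3.2% of the Cdkn2a counts in Ctr replicates 1 to 4. With IFN-γ it took 3.55% in replicate 1 (95% Wilson interval 2.08 to 5.73%, 14 of 404 counts) and 0 in replicates 2, 3 and 4. A count of 0 among 226, 132 and 151 Cdkn2a counts allows a share of up to 1.33%, 2.27% and 1.99% (3 counts of the total, counting error only), while the upper Wilson limits drawn in the plot of shares are 1.67%, 2.83% and 2.48%. In Dexa-treated replicates 1, 2 and 4 the share was 8.31% (18 of 219 counts), 0 (of 135 counts, up to 2.22%, upper Wilson limit 2.77%) and 13.5% (5 of 37 counts, interval 5.91 to 28%). The difference in mean share from Ctr was -1.77 percentage points with IFN-γ (p = 0.143) and 4.62 points with dexamethasone (p = 0.286, both exact two-sided permutation tests, where 3 against 4 libraries cannot give less than 0.0571 and 4 against 4 not less than 0.0286). The exact sign-flip test over pairs gave p = 0.25 for IFN-γ and p = 0.5 for dexamethasone, where 4 pairs cannot give less than 0.125 and 3 pairs not less than 0.25. The p16Ink4a transcript held 0 to 18 counts per library, so its share carries a large counting error. These counts are Salmon estimates, in which reads on shared exons are divided between the transcripts. The limits and intervals above treat every Cdkn2a count as telling the transcripts apart. They leave the uncertainty of that division out and are too narrow to that extent. The Arf transcript by itself was higher upon IFN-γ in 4 of 4 pairs, by a mean of 0.91 on the log2(normalized count + 1) scale (exact permutation over unpaired libraries, p = 0.171, and exact sign-flip over the 4 pairs, p = 0.125, the smallest it can give).

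**Figure D2:**
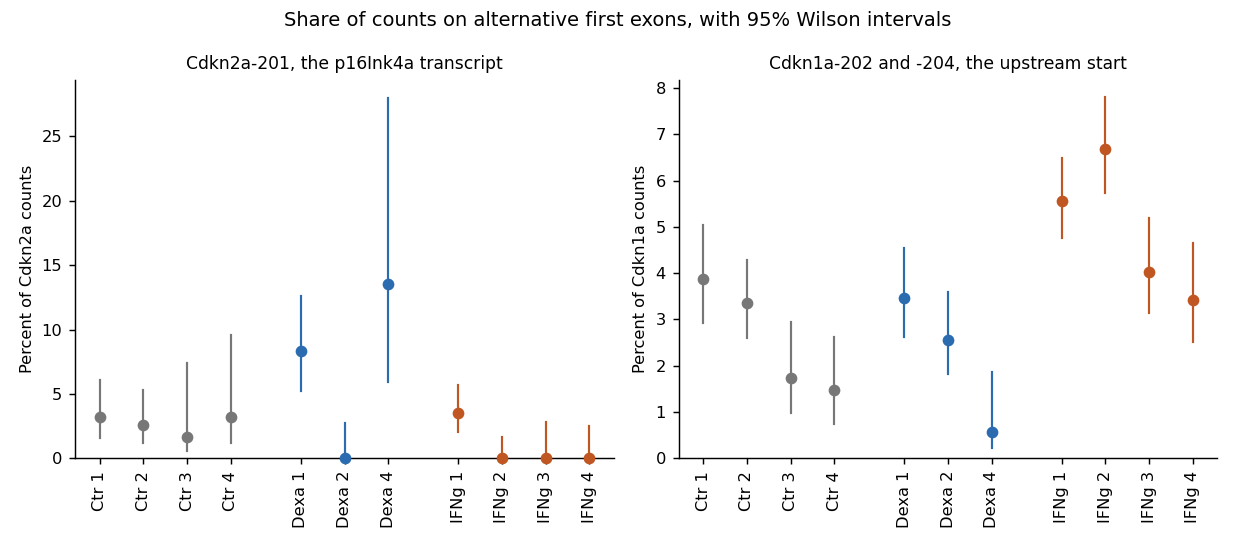
Percent of the counts of Cdkn2a on the p16Ink4a transcript (left) and of Cdkn1a on the transcripts with the upstream start (right) in each library, with 95% Wilson intervals for counting error and group colours as labelled on the x axis. The p16Ink4a share is 0 in 3 of 4 IFN-γ libraries and 13.5% in Dexa replicate 4, where the interval reaches 28%, and the upstream-start share of Cdkn1a is 1.47 to 3.87% in Ctr-OPCs and 3.43 to 6.68% with IFN-γ.

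Cdkn2b, the neighbour of Cdkn2a on chromosome 4 (89306299 to 89311039, minus strand), encodes p15. It had 117, 103, 62.7 and 80.4 normalized counts in Ctr replicates 1 to 4. With IFN-γ it had 251, 167, 110 and 148, and with dexamethasone 158, 140 and 114 in replicates 1, 2 and 4. Like Rb1, it lay above control in every pair upon both treatments, with log2 ratios of 0.69 to 1.11 upon IFN-γ and 0.43 to 0.50 upon dexamethasone. Upon dexamethasone 2 of the 9 genes did so in every pair, against 21% of all genes, so this was no more than the common share. The IFN-γ change was 0.88 ± 0.16 (1.84-fold, 95% interval 1.47 to 2.29, DESeq2 adjusted p = 9.70e-07). It kept its call in 18 of 19 alternative fits and lost it in edgeR without the block (adjusted p = 0.0759). The dexamethasone change of 0.44 ± 0.19 did not pass (unadjusted p = 0.018, DESeq2 adjusted p = 0.318).

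Cdkn1b, encoding p27, had high and even counts, with 3009, 2786, 2553 and 2496 in Ctr replicates 1 to 4 and 3052, 3240, 3069 and 3064 upon IFN-γ treatment. Dexa-treated replicates 1, 2 and 4 held 2988, 2876 and 2490. The IFN-γ and Ctr ranges did not overlap, but replicate 1 differed by a log2 ratio of 0.02 only. The log2 fold change was 0.20 ± 0.07 (1.15-fold, 95% interval 1.04 to 1.27, DESeq2 adjusted p = 0.0228, edgeR adjusted p = 0.0157). This call was fragile: without the block it was lost (adjusted p = 0.148 in DESeq2), and leaving out any single library other than Ctr replicate 1 or IFN-γ replicate 1 moved the adjusted p to between 0.0556 and 0.172, with a log2 fold change of 0.17 to 0.20. A DESeq2 fit of the Ctr and IFN-γ groups alone lost the call too (adjusted p = 0.0539).

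Cdkn2c and Cdkn2d, the INK4 genes for p18 and p19Ink4d, differed between replicate numbers in Ctr-OPCs. Cdkn2c had 2531, 1947, 1039 and 975 normalized counts in Ctr replicates 1 to 4, and 2271, 2041, 1544 and 1600 upon IFN-γ treatment. Cdkn2d had 1321, 1151, 700 and 811, and 1290, 1207, 1139 and 1039. In both genes the IFN-γ value lay below control in replicate 1, was near it in replicate 2 and was above it in replicates 3 and 4. The log2 fold changes were 0.31 ± 0.14 (95% interval 0.04 to 0.58, DESeq2 adjusted p = 0.0817) and 0.27 ± 0.12 (0.04 to 0.50, adjusted p = 0.0662). Both passed without Ctr replicate 1 (0.38, adjusted p = 0.045 for Cdkn2c and 0.34, adjusted p = 0.043 for Cdkn2d) and without IFN-γ replicate 1 (0.46, adjusted p = 4.67e-04 and 0.37, adjusted p = 0.00673). Rb1 had 1238, 1383, 1471 and 1387 normalized counts in Ctr replicates 1 to 4 and 1305, 1706, 1539 and 1741 with IFN-γ, higher in 4 of 4 pairs. Its log2 fold change was 0.19 ± 0.09 (95% interval 0.02 to 0.37, DESeq2 adjusted p = 0.0784), which passed without IFN-γ replicate 1 (0.25, adjusted p = 0.019). Rb1 spans chromosome 14 from 73183673 to 73325822 on the minus strand and shares stretches with Rcbtb2 and Lpar6 on the opposite strand and with Gm17233 and Mir687 on its own, of which the latter pair held 7 counts or fewer.

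Genes of DNA replication and mitosis differed between the replicate numbers in the same way. The normalized counts of the 16 S-phase genes listed as E2F targets summed to 94248, 71367, 34704 and 33845 in Ctr replicates 1 to 4 and to 102387, 95450, 67030 and 61681 with IFN-γ. Those of the 12 mitotic genes summed to 109422, 83938, 54659 and 39930 in Ctr replicates and to 109314, 113010, 87300 and 83536 with IFN-γ. Ctr replicates 1 and 2 lay above replicates 3 and 4 in both sums. The same held, by differing amounts, for each of the 9 genes except Rb1. The step was smallest for Mdm2, at 1944 and 1948 against 1872 and 1850 normalized counts. Replicates 3 and 4 also share a prefix in their sample titles whose meaning the labels do not give. The values within each replicate number therefore stand beside each change above, and the part of proliferation in the changes of the 9 genes was not tested.

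**Figure D3:**
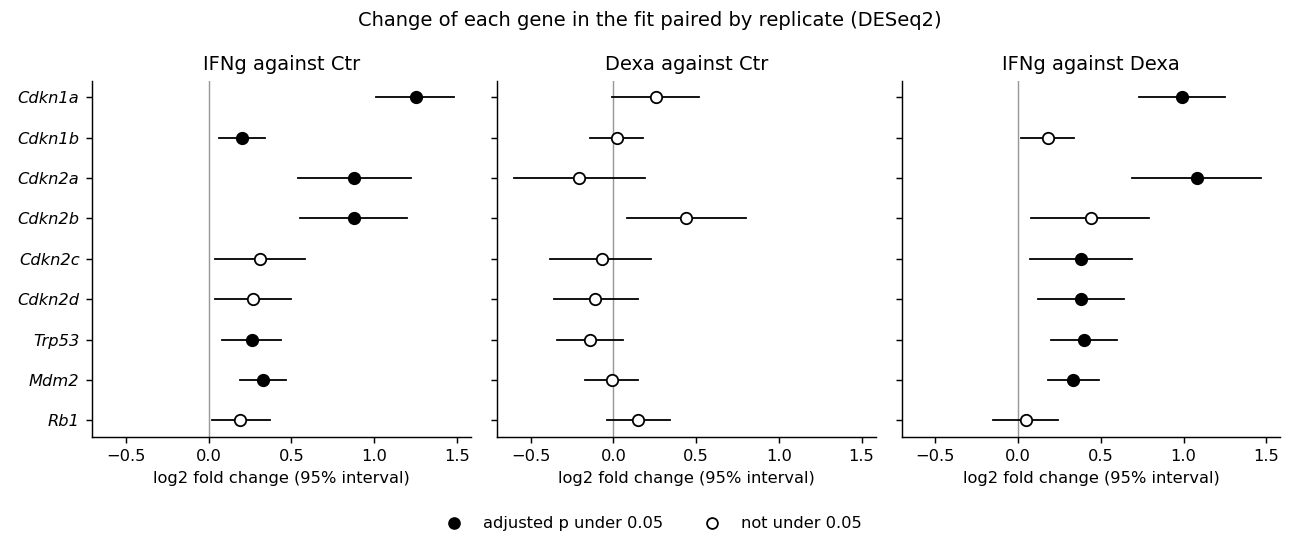
Log2 fold changes with 95% intervals of the 9 genes in the 3 comparisons, from the DESeq2 fit with the replicate block; filled points have an adjusted p under 0.05. All 9 points lie above 0 for IFN-γ against Ctr, with 6 filled, and no point is filled for dexamethasone against Ctr.

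Dexamethasone changed none of the 9 genes past the threshold: 0 were called by DESeq2 and by edgeR, where these called 2.57% and 1.57% of all genes. Without the block 0 were called as well, against 0.547% of all genes in DESeq2 and 0.123% in edgeR. At an unadjusted p under 0.05 in the DESeq2 fit with the block there was 1, Cdkn2b. The log2 fold changes ran from -0.21 to 0.44 with a median of -0.01. Cdkn1a stood at 0.26 ± 0.14 (95% interval -0.01 to 0.52, DESeq2 adjusted p = 0.59) and was higher in 2 of 3 pairs. Rb1, at 0.15 ± 0.10 (adjusted p = 0.771), had 1478, 1512 and 1511 normalized counts, all above the 4 Ctr libraries, as was the case for 2.58% of all genes in this comparison. The other intervals were -0.60 to 0.19 for Cdkn2a, -0.38 to 0.23 for Cdkn2c, -0.36 to 0.15 for Cdkn2d, -0.34 to 0.06 for Trp53, -0.14 to 0.18 for Cdkn1b and -0.17 to 0.15 for Mdm2, so a rise of Mdm2 as large as that seen with IFN-γ lies outside its interval.

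Set directly against dexamethasone, IFN-γ-treated OPCs had 6 of the 9 genes higher and none lower: Cdkn1a, Cdkn2a, Cdkn2c, Cdkn2d, Trp53 and Mdm2 (DESeq2 with the block, against 31.6% of all genes called and 16.2% higher). This comparison uses the same IFN-γ libraries as the one against Ctr, as both comparisons with Ctr share the Ctr libraries, so they are not independent. Cdkn2a was 1.08 ± 0.20 higher (2.12-fold, 95% interval 1.62 to 2.78, DESeq2 adjusted p = 5.67e-07) and Cdkn1a 0.99 ± 0.13 higher (1.99-fold, 1.65 to 2.39, adjusted p = 4.10e-12), each in 3 of 3 pairs. Mdm2 was 0.33 ± 0.08 higher (DESeq2 adjusted p = 2.57e-04) and Trp53 0.40 ± 0.10 (adjusted p = 5.03e-04). Cdkn2b, at 0.44 ± 0.18, missed the threshold in DESeq2 (adjusted p = 0.0519) and passed it in edgeR with the block (0.0317), as did Cdkn1b (0.042). That fit called 7 of the 9 genes and 33.7% of all genes. Cdkn2c (0.38 ± 0.16, DESeq2 adjusted p = 0.0474) lost its call in edgeR (adjusted p = 0.0903) and without any 1 of Ctr replicates 1 to 4, Dexa replicates 2 and 4 or IFN-γ replicates 3 and 4 (0.0513 to 0.365). Cdkn2d (0.38 ± 0.13, DESeq2 adjusted p = 0.0167) lost it without Dexa replicate 2 (0.0735), Dexa replicate 4 (0.131) or IFN-γ replicate 4 (0.0668), and Cdkn1b (0.18 ± 0.08, adjusted p = 0.0835) gained a call without IFN-γ replicate 1 (0.0125). In a DESeq2 fit of the IFN-γ and Dexa groups alone, Cdkn2c and Cdkn2d also lost their calls (adjusted p = 0.267 and 0.135). Without the block 1 of the 9 genes, Mdm2, was called by each tool, against 13.1% of all genes in DESeq2 and 8.77% in edgeR.

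Among 30 known p53 target genes, all tested, 21 rose and 4 fell upon IFN-γ treatment, with a median log2 fold change of 0.63, where 29.2% of all genes were called and 15.2% were higher. Counting both directions, 25 were called in this fit and 21 to 23 in fits that leave out 1 library. Without the block 18 were called by DESeq2 and 15 by edgeR. Fas, a death receptor, rose by 3.75 ± 0.24 (DESeq2 adjusted p = 3.09e-51), from a mean of 31.2 normalized counts in Ctr-OPCs to 398. Tnfrsf10b, the receptor for the death ligand TRAIL, rose by 1.27 ± 0.16 (adjusted p = 4.31e-14). Pidd1, a death-domain scaffold that activates caspase-2, rose by 1.19 ± 0.18 (adjusted p = 1.15e-09), and Pmaip1, the BH3-only protein Noxa, by 1.18 ± 0.22 (adjusted p = 8.34e-07). The 4 that fell, named after their values were seen, were the p53-induced DNA repair factor Ddb2 (-0.53 ± 0.20), the antiproliferative gene Btg2 (-0.46 ± 0.14), the ribonucleotide reductase subunit Rrm2b (-0.26 ± 0.10) and the stress protein Sesn1 (-0.27 ± 0.07). Of these, Sesn1 kept its call in all 20 alternative fits. Ddb2 kept it in 9 of 19, Rrm2b in 7 of 20 and Btg2 in 16 of 20. Btg2 lost it without Ctr replicate 1 (-0.32, adjusted p = 0.0714) or IFN-γ replicate 2 (-0.37, adjusted p = 0.0698), and Ddb2 was at -0.32 without Ctr replicate 3 (adjusted p = 0.36) or IFN-γ replicate 3 (adjusted p = 0.345). Dexamethasone changed 0 of the 30 in DESeq2 and in edgeR, where these called 2.57% and 1.57% of all genes. At an unadjusted p under 0.05 there were 0 as well. Against dexamethasone, 20 of the 30 were higher and 4 lower with IFN-γ, where 31.6% of all genes were called and 16.2% were higher. Without the block 16 were called there by DESeq2 and 12 by edgeR.

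Of 11 tested genes that regulate p53, 5 rose with IFN-γ and none fell, with a median of 0.16, against 15.2% of all genes higher. Without the block 3 were called by each tool. Pml, the scaffold of the nuclear bodies that recruit p53 and an interferon-induced gene, rose by 1.70 ± 0.13 (DESeq2 adjusted p = 3.47e-40), and Atm, the kinase that phosphorylates p53 after DNA breaks, by 1.17 ± 0.09 (adjusted p = 5.01e-40). The checkpoint kinases Chek1 and Chek2 rose by 0.80 ± 0.15 and 0.47 ± 0.15, and neither passed without the block (adjusted p = 0.348 and 0.633 in DESeq2). Chek2 was also lost without IFN-γ replicate 2, 3 or 4 or Ctr replicate 3 or 4 (adjusted p 0.0577 to 0.0859). The fifth was Daxx, a chaperone that binds Mdm2 and Pml, at 0.42 ± 0.07, named after its value was seen. The p53 relatives Trp63 and Trp73 had too few counts to be tested. Dexamethasone changed 0 of the 11 in DESeq2 and in edgeR (1 at an unadjusted p under 0.05), where these called 2.57% and 1.57% of all genes. Against dexamethasone 6 of the 11 were higher with IFN-γ, where 16.2% of all genes were higher, and without the block 4 were called by each tool.

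Genes of the G1 to S transition, DNA replication and mitosis were followed in 4 lists. Upon IFN-γ treatment the S-phase list had 16 of 16 genes higher (median 0.59, against 15.2% of all genes called higher), with Cdc45 and Mcm5, parts of the replicative helicase, at 0.78 ± 0.15 and 0.75 ± 0.14, Mcm6 at 0.72 ± 0.13 and Rrm2, a subunit of ribonucleotide reductase, at 0.78 ± 0.15. The mitotic list had 10 of 12 higher (median 0.53), with Top2a at 0.90 ± 0.24 and Foxm1 at 0.60 ± 0.15, and Bub1, at 0.60 ± 0.16, lost its call without Ctr replicate 3 (0.58, adjusted p = 0.157) or IFN-γ replicate 3 (0.58, adjusted p = 0.153). Of the E2F family 4 of 10 rose, E2f1, E2f2, E2f3 and E2f7, by 0.24 to 0.56. Without Ctr replicate 3 or IFN-γ replicate 3 the calls of E2f1 (adjusted p = 0.0909 and 0.0865) and E2f3 (0.0648 and 0.0583) were lost. E2f1 was also lost without IFN-γ replicate 4 (0.0557), and E2f3 without Ctr replicate 2 (0.131), IFN-γ replicate 2 (0.145) or Ctr replicate 4 (0.118). Without the replicate block 0 genes of these 3 lists were called by DESeq2 or edgeR, and at an unadjusted p under 0.05 DESeq2 had 1, a mitotic gene. Leaving out 1 library at a time left 14 to 16 S-phase genes, 6 to 12 mitotic genes and 2 to 6 E2F genes called. Among 9 G1 cyclins and CDKs 5 rose (1 without the block in either tool), led by Cdk6, the kinase that INK4 proteins bind, at 1.00 ± 0.09 (DESeq2 adjusted p = 4.89e-25), and Ccnd1, its partner cyclin D1, at 0.78 ± 0.07 (adjusted p = 2.49e-27). Cdk6 kept its call without the block (adjusted p = 1.61e-07 in DESeq2), Ccnd1 did not (0.146). Dexamethasone changed 0 genes of these 4 lists in DESeq2 and in edgeR with the block, where these called 2.57% and 1.57% of all genes. In these lists 1 S-phase gene and 1 G1 gene had an unadjusted p under 0.05. Against dexamethasone, IFN-γ-treated OPCs had 16 of 16 S-phase genes, 10 of 12 mitotic genes, 6 of 10 E2F genes and 6 of 9 G1 genes higher, where 16.2% of all genes were higher. Without the block DESeq2 and edgeR each called 0 S-phase, mitotic or E2F genes in this comparison, and 1 G1 gene.

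**Figure D4:**
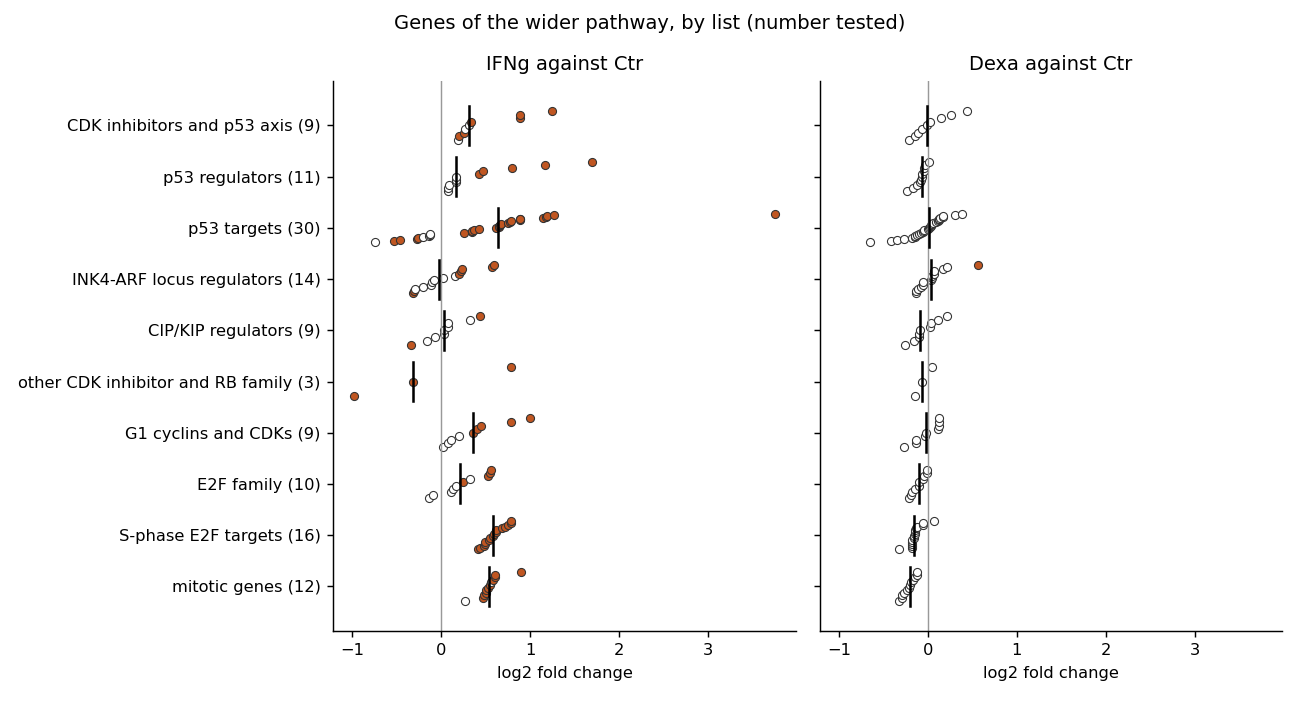
Log2 fold changes of the 9 genes and of the genes of the wider pathway by list, 1 point per tested gene (filled with an adjusted p under 0.05), with a bar at each list's median, for IFN-γ against Ctr (left) and dexamethasone against Ctr (right). With IFN-γ the S-phase list lies wholly above 0 and the p53 targets run from below 0 to Fas at 3.75, whereas with dexamethasone the medians lie between -0.20 and 0.04.

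The remaining relatives of the axis went both ways upon IFN-γ treatment. Cdkn1c, encoding the third CIP/KIP inhibitor p57, fell by 0.98 on the log2 scale (SE 0.22, DESeq2 adjusted p = 7.76e-05), from a mean of 268 to 129 normalized counts, lower in 4 of 4 pairs. Of the Rb1 relatives, Rbl1 rose by 0.78 ± 0.13 (adjusted p = 7.81e-08) and Rbl2, the form that prevails in resting cells, fell by 0.32 (SE 0.09, adjusted p = 0.00177). Neither Rb1 relative passed without the block (DESeq2 adjusted p = 0.2 and 0.114). Of 9 genes that control p21 and p27, 2 were called, where 29.2% of all genes were, so their share was not above that of all genes. The gene that rose and the one that fell were Cks1b, the cofactor with which Skp2 marks p27 for degradation, at 0.43 ± 0.13, lost without Ctr replicate 3 (0.26, adjusted p = 0.123) or IFN-γ replicate 3 (0.27, adjusted p = 0.114) and without the block (0.34, adjusted p = 0.691 in DESeq2), and the forkhead factor Foxo4 at -0.34 ± 0.08. Of 14 tested regulators of the Cdkn2a-Cdkn2b locus, 5 rose and 2 fell, against 29.2% of all genes called, and without the block 2 were called by DESeq2 and 1 by edgeR. Among those that rose were Jdp2 (0.59 ± 0.11), an AP-1 family repressor, and Ets1 (0.57 ± 0.14), an activator of p16Ink4a, which lost its call without the block (adjusted p = 0.214 in DESeq2 and 0.248 in edgeR). The 2 that fell, the Polycomb genes Ring1 (-0.32 ± 0.10) and Cbx8 (-0.31 ± 0.09), lost their calls without Ctr replicate 1 (adjusted p = 0.0564 and 0.0532) or Ctr replicate 4 (0.0729 and 0.0621), and Ring1 also without Ctr replicate 2 (0.0782) or IFN-γ replicate 2 (0.0738). Tbx2 and Tbx3, repressors of the locus, had too few counts to be tested. Jdp2 was the single gene of the 9 pathway lists that dexamethasone changed in DESeq2, at 0.56 ± 0.12 (DESeq2 adjusted p = 5.25e-04), which did not pass without Dexa replicate 1 (0.52, adjusted p = 0.113) or without the block (adjusted p = 0.0569 in DESeq2 and 0.515 in edgeR). Against dexamethasone, 4 of the 14 tested regulators of the locus were higher and 1 lower with IFN-γ. Of the 9 regulators of p21 and p27, 1 was higher and 1 lower, where 31.6% of all genes were called. Without the block DESeq2 called 1 regulator of the locus and edgeR 0, and both called 0 regulators of p21 and p27. In the fit with the block Cdkn1c, Rbl1 and Rbl2 stood at -0.83 ± 0.25, 0.85 ± 0.15 and -0.36 ± 0.10 against dexamethasone. In that comparison Cdkn1c lost its call without Dexa replicate 4 (-0.48, adjusted p = 0.17) or IFN-γ replicate 4 (-0.53, adjusted p = 0.0629), and Rbl2 without Dexa replicate 1 (-0.31, adjusted p = 0.0559).

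The genes whose centred log2 normalized counts over the 11 libraries lay nearest to those of Cdkn1a were Pcolce, Itpr1 and Lrrk2, at a root mean square difference of 0.15, 0.18 and 0.20, where the median gene was at 0.75. For Cdkn2a they were Triobp, Cgas and Vim, at 0.16, 0.19 and 0.21, where the median gene was at 0.83. Cgas is the cytosolic DNA sensor and Vim the intermediate filament vimentin. These distances describe 11 libraries, of which those with the same replicate number deviated together.

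RefSeq promoters on GRCm38.p6 were found for 8 of the 9 genes, 11 windows in all, and the 250 bases before each start were searched on both strands. The IFN-γ-activated site TTCNNNGAA was in 0 of the 11 windows and in 7.02% of 32851 promoters. The interferon-stimulated response element core, GAAA and GAAA with any 2 bases between, was also in 0, against 2.98%. The p53 half-site was in 4 of 11, against 7.13%: the upstream start of Cdkn1a, Mdm2, Trp53 and Cdkn2d. The Cdkn2d match, at 102 to 93 bases before the RefSeq start at 21291209 (minus strand), lies inside the annotated gene. That gene begins further upstream, at 21291407. The glucocorticoid half-site AGAACA was in 1, a start of Cdkn2c, against 16.1%. No match of one motif overlapped another. The window of Trp53 (chr11:69580109-69580358, plus strand) is shown because Trp53 encodes p53 itself and its window holds 1 half-site match, in capitals at 75 to 66 bases before the start.
Trp53: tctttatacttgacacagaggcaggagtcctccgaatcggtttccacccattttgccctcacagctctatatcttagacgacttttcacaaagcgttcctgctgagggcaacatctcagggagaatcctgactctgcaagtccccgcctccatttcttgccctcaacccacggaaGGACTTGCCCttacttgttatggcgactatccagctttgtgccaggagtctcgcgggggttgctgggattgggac
A match describes the letters in the window and is no evidence of binding, and the windows leave out enhancers. They also leave out starts further into Mdm2, such as that of Mdm2-209 at 117710022.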

How the data were processed

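Total RNA-seq of 12 OPC cultures was used as the authors deposited it: per-transcript estimated counts and TPM from Salmon 0.8.2 (version per the labels), on transcripts whose identifiers match GENCODE M21 (GRCm38). The deposited DESeq2 tables of the authors' own comparisons (log2 fold changes and p-values) were not used. Estimated counts were summed per gene and rounded. The 17919 genes that reached 10 counts in 4 or more of the 11 complete libraries were fitted in DESeq2 1.42.0 (R 4.3.3) with the replicate number as a block and all groups in one fit, with a Wald test and Benjamini-Hochberg adjustment at 0.05. edgeR 4.0.16 was the alternative. Deviations from group means correlated at 0.404 to 0.722 between same-numbered libraries (10 pairs) and at -0.613 to 0.494 otherwise (30 pairs), so the numbers were taken to pair the cultures. The labels say that replicates came from different litters, not that a number marks one litter across groups. On simulated counts for IFNg against Ctr (17919 genes, 200 changed, 3 draws), DESeq2 called 71% of 2-fold and 87% of 4-fold changes, and edgeR 68% and 85%. Of all calls made there, 14.8% were false in DESeq2 and 6.13% in edgeR, both above the 0.05 aimed at. In the data DESeq2 called 5238 genes for this comparison, far more than the 200 changed in the simulation. The false share of the real calls may therefore differ and was not measured. Transcript shares of Cdkn2a, Cdkn1a and Cdkn2c were compared by exact permutation and sign-flip tests (scipy 1.17.1).

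The 9 genes and the lists were chosen with earlier results of these data known. Named were the 9 genes, up to 4 called genes per list and comparison with the largest change, lists of 3 genes or fewer, and the 3 nearest profiles of Cdkn1a and Cdkn2a. For IFNg against Dexa, list genes are mostly given as counts. No protein sequences were used here.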

Additional observations from a re-analysis of the deposited data

Results flagged for a closer look

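In 4 of 27 groups of 4 libraries, 1 library stood apart by Dixon's test (its gap to the nearest, as a share of the range, above the 95% critical value). Chance flags about 1 in 20 groups. The Cdkn1b normalized count of 3240 in IFN-γ-treated replicate 2 was above the other 3 libraries, which lay at 3052 to 3069. The p16Ink4a share of Cdkn2a counts was 3.55% in IFN-γ-treated replicate 1 and 0 in the others. With 0 in all the others, any value above 0 would be flagged, so the chance rate does not apply to this flag. Trp53 was at 20.4 TPM in Dexa-treated replicate 1, with the other 3 libraries at 15.3 to 16 TPM. Rb1 was at 6.51 TPM in Dexa-treated replicate 3, whose table is incomplete, with the other 3 at 7.29 to 7.44 TPM.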

How the results depend on the processing

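The replicate block decided many calls. Without it, DESeq2 called 3 and edgeR 2 of the 9 genes for IFNg against Ctr, and 1 each for IFNg against Dexa, while all-gene calls fell from 5238 to 2302 and 1513, from 460 to 98 and 22 (Dexa against Ctr) and from 5662 to 2345 and 1571. With the block, edgeR made 282 calls for Dexa against Ctr. Fitting only the 2 groups compared gave 1026 calls there and 3563 for IFNg against Dexa. That DESeq2 fit called 4 of the 9 genes for IFNg against Ctr, where Cdkn1b and Trp53 lost their calls. It also called 4 for IFNg against Dexa, where Cdkn2c and Cdkn2d lost theirs. Leaving out 1 library gave 4 (without Ctr replicate 3) to 9 (without IFNg replicate 1) of the 9 genes for IFNg against Ctr, 4 to 7 for IFNg against Dexa and 0 for Dexa against Ctr. All-gene calls ranged over 3731 to 5100, 3724 (without Dexa replicate 2) to 5300 and 190 (without Dexa replicate 2) to 542. The p16Ink4a share difference ranged over -2.66 to -1.48 points for IFN-γ and 1.49 (without Dexa replicate 4) to 8.25 (without Dexa replicate 2) for dexamethasone.

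No called change of the 9 genes turned direction in the 20 alternatives, and over them 21 of 116 values of the genes called for IFNg against Ctr and 24 of 116 for IFNg against Dexa missed the threshold. Uncalled log2 fold changes near 0 did turn direction. For Dexa against Ctr, the fits without the block gave 0.03 and 0.04 for Cdkn2a, 0.06 and 0.06 for Cdkn2c, 0.0021 and 0.0019 for Mdm2, 0.03 and 0.03 for Rbl1, and -0.003 and -0.0027 for Rbl2 (DESeq2 and edgeR). Mdm2 also stood at 0.01 with length-scaled counts and 0.0091 with 12 libraries. Over the fits without 1 library the range was -0.39 to -0.07 for Cdkn2a, -0.19 to 0.06 for Cdkn2c, -0.04 to 0.03 for Mdm2, -0.20 to 0.04 for Rbl1, -0.01 to 0.10 for Rbl2, -0.0064 to 0.07 for Cdkn1b and -0.53 (without Dexa replicate 4) to 0.09 (without Dexa replicate 2) for Cdkn1c. For IFNg against Dexa, Rb1 stood at -0.04 with length-scaled counts and at -0.01 to 0.13 without 1 library. The cause was not tested. Genes under about 100 counts, such as Cdkn2b in Ctr-OPCs, carry the largest counting error.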
